A study of Homo sapiens with 4 samples.

Results

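Acetylation of lysine 14 on histone H3 (H3K14ac) was mapped by chromatin immunoprecipitation and sequencing in cells of the gastric cancer line MKN45 that carried either a non-targeting hairpin (shNT, the control) or a hairpin against NIT2 (shNIT2, the knockdown). The regions described here are the narrow stretches of H3K14ac at the boundaries of protein-coding genes that appeared in the peak list of the knockdown library and had no counterpart in that of the control. They were chosen by peak calls in both lists: a row of the knockdown list below 2500 bp in width, without a base of overlap with any row of the control list, and with its midpoint within 1 kb of the start or end of a protein-coding gene. Of 28187 knockdown regions, 6379 (22.6%) met the rule, among 68063 rows of both lists. Each condition had 1 H3K14ac library, so no value below has a replicate check and none was tested. Both groups share the cell line, the serum-containing medium and the antibody, no drug treatment is named for either, and what differs by the labels is the hairpin. The labels do not say how many hairpins or clones were used. Whether the mark lay in more cells or was denser in each cell cannot be told apart.

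H3K14ac is placed by acetyltransferases such as the HBO1, MOZ and GCN5 complexes and marks nucleosomes beside the starts of transcribed genes. At an active start the DNA itself is largely free of nucleosomes, so histone marks flank it, with the first nucleosomes of the gene body downstream and those of the upstream region on the other side. Many human promoters, above all those of genes that every cell uses, are rich in the dinucleotide CpG, and a good share of them drive a neighbour on the opposite strand as well. NIT2 is an omega-amidase of glutamine metabolism, and the study's title ties it to oxidative phosphorylation and to resistance against fluorouracil, a chemotherapy drug.

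Total reads per library are not known, but the pileups and backgrounds solved from the authors' values differed greatly, and this bears on every count below. The control list was the longer one, with 39876 rows. The median fragment pileup at a summit was 6 in the control list and 22 in the knockdown list, and the lowest background differed 8.93-fold. A region absent from the control list may therefore carry no mark there or too few reads for a call, and the 2 cannot be told apart. At the edges of the rule, the widest region kept lay at CERS2 (2495 bp, 9.19-fold) and the narrowest excluded at RAB26 (2506 bp, 10.1-fold). A region at EIF2S3 had its midpoint 1000 bp from the gene start (7.59-fold), and one on chromosome 17 from 68292324 to 68292636 was left out for a midpoint 1 bp farther (2.83-fold). A control region came within 1 bp of the member at PSMG3 (5.06-fold) and overlapped the excluded region at SULT6B1 by 19 bp (6.22-fold). In all, 414 members (6.49%) had a control region within 1000 bp and 1595 had one within 10 kb.

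Promoters of 7 of the strongest members are printed to show the sequence on which the regions border. They are the first by fold whose promoter window at the gene start overlaps the region by at least 1 base, so DAZAP1, TET3, KLF6 and PLEKHA6 (below) are not among them. They are from RefSeq (GRCh38.p14, the chromosomes of hg38), 300 bases each, 250 before to 50 after the gene start, written 5′ to 3′ on the gene's strand. Capitals mark matches on either strand to the motifs listed further below. For 4 of them, the region began inside the last bases and ran into the gene. CDC42, a small GTPase of cell polarity, has its promoter at chr1:22052459-22052758 (plus strand), and its region overlapped the last 66 bases. CNOT3, of the CCR4-NOT deadenylase, is at chr19:54137512-54137811 (plus strand) with an overlap of 61 bases, BRI3 at chr7:98281436-98281735 (plus strand) with 41, and PLEKHJ1 at chr19:2236280-2236579 (minus strand) with 36. The regions of the other 3 covered the whole window: LAMC1, a laminin chain, at chr1:183023170-183023469 (plus strand), the villin-like gene VILL at chr3:37987728-37988027 (plus strand) and EPS8L3 at chr1:109763874-109764173 (minus strand).
CDC42: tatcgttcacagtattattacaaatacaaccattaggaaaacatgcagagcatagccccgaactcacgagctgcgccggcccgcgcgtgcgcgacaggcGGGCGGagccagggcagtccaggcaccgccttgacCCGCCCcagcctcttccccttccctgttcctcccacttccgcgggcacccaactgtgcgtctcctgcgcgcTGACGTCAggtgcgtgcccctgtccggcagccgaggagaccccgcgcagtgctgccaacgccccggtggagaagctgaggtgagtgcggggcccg
CNOT3: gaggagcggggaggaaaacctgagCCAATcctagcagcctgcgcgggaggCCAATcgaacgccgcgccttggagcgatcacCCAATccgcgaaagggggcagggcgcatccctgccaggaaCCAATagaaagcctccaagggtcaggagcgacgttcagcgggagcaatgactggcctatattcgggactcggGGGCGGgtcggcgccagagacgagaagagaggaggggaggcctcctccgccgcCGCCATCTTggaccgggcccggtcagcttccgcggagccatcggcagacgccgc
BRI3: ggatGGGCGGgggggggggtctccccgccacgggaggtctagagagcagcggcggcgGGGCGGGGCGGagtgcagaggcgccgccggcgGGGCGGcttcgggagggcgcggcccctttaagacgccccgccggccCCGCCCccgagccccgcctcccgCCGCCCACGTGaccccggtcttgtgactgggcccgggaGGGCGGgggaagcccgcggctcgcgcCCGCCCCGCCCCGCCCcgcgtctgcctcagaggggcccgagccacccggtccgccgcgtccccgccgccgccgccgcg
PLEKHJ1: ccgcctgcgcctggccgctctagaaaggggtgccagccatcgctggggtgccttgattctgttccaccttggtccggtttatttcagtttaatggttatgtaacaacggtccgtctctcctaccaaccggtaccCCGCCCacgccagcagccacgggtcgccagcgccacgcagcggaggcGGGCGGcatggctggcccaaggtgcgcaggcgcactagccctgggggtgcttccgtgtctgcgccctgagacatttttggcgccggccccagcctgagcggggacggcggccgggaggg
LAMC1: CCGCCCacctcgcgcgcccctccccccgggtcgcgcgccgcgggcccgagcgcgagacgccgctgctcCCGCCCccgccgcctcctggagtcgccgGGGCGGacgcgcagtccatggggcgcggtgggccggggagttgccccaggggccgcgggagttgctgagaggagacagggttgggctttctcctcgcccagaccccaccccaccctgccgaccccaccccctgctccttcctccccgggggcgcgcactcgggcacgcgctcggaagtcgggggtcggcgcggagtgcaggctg
VILL: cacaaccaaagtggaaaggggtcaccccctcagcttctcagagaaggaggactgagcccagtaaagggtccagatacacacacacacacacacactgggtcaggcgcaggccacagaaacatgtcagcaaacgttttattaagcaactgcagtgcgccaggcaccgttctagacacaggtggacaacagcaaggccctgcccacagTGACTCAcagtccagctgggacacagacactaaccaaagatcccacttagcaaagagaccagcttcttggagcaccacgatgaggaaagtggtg
EPS8L3: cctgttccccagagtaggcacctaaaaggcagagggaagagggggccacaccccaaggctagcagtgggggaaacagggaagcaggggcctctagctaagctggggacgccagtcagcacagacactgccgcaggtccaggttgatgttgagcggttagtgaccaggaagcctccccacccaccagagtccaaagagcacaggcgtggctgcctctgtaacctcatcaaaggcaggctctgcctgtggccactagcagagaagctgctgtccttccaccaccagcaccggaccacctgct

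The first 5 of these windows are rich in CpG and the last 2 are not. The ratio of observed to expected CpG was 0.899 at CDC42, 0.897 at CNOT3, 0.914 at BRI3, 0.802 at PLEKHJ1 and 0.880 at LAMC1, against 0.233 at VILL and 0.179 at EPS8L3. BRI3 held 48 CpGs in its 300 bases and VILL 5. GC boxes were found in all 5 CpG-rich windows, with 10 matches at BRI3, and in neither of the CpG-poor ones. CNOT3 held 4 CCAAT boxes and 1 match to the YY1 letters, and CDC42 a full cyclic AMP response element.

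The strongest regions lay at genes of varied function, with CDC42 and DAZAP1 first. The authors' fold enrichment, the pileup plus 1 over the background plus 1, was 29.4 at CDC42 (chr1:22052693-22053850), from 108 fragments over a background of 2.71. It was 29.0 at DAZAP1, an RNA-binding protein (chr19:1407657-1408690), from 107 fragments. CNOT3 followed at 24.1, the methylcytosine dioxygenase TET3 at 21.0, LAMC1 at 20.5 and the zinc finger factor KLF6 at 19.8. All 6 lay at gene starts, the first 4 with the midpoint 463 to 915 bp downstream, LAMC1 and KLF6 with it 623 and 808 bp upstream. Next came VILL (18.3), BRI3 (17.5), PLEKHJ1 (17.3), PLEKHA6 (17.3), EPS8L3 (17.2), AP5B1 (17.1) and GDPD4 (17.1). A further region, at 17.0, lay at the start of HNRNPU, a nuclear RNA-binding protein, and beside the uncharacterised LOC124904588. GDPD4 had 170 fragments over a background of 9.02, the highest background of these, and a control region 170 bp away. LAMC1 had a control region 674 bp away and PLEKHJ1 721 bp, whereas the nearest one to TET3 lay 297469 bp off.

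Gene starts, not gene ends, held almost all of the regions. The promoter table gave a strand for 15842 of 20037 protein-coding genes, and for none of the 715 on chromosome 8. Among members whose nearest boundary has a strand, 4989 lay nearest a start and 288 nearest an end, so the start share was 94.5% (95% exact interval 93.9 to 95.1, which covers counting error only, as all intervals below). Around the starts, the midpoints formed a large cluster downstream and a small one upstream, with few between. Downstream of the start lay 3736 (74.9%, 73.7 to 76.1), at a median of 444 bp, and upstream 1252, at a median of 529 bp. The fullest 100 bp bin, from 300 to 400 bp downstream, held 812 members. The fullest upstream bin, from 500 to 400 bp before the start, held 233, and the emptiest of all, from 300 to 200 bp before it, held 50. Within 150 bp of the start lay 274 midpoints (5.49%). Narrow regions shared with the control list showed much the same picture, with a start share of 94.7% (92.3 to 96.4). Of the 478 nearest a start, 75.1% (71.0 to 78.9) were downstream, at a median of 530 bp, and 7.53% within 150 bp. Over all knockdown regions within 1 kb of a gene boundary the start share was 94.5% as well, so it is not particular to members.

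**Figure D1:**
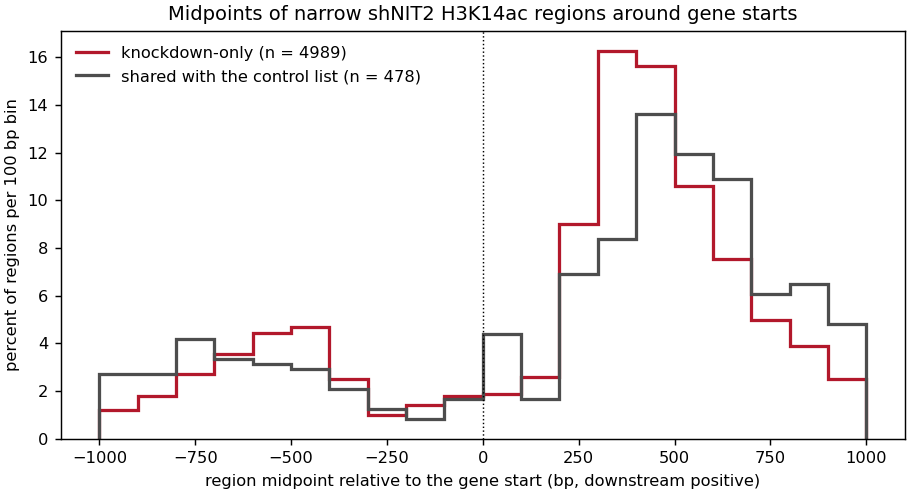
Percent of narrow shNIT2 regions per 100 bp bin (vertical axis) against the midpoint's distance from the nearest gene start in bp (horizontal axis, downstream positive), for the 4989 knockdown-only regions in red and the 478 shared ones in grey. The red line is highest from 300 to 500 bp downstream and the grey one from 400 to 700 bp, and both are low around and just before the start and rise again to a smaller shoulder upstream.

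Members on the 2 sides of the start differed in size. Those over 150 bp downstream had a median width of 576 bp (quartiles 402 and 828) and a median fold of 4.60, against 454 bp (344 and 659) and 4.06 for those over 150 bp upstream. The 274 regions centred within 150 bp of the start were wider than either, at a median of 877 bp (464 and 1243). They thus often reached across the start, as VILL's did with its midpoint 28.5 bp upstream and a width of 1336 bp.

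Many starts carried a separate region on each side. Of 5005 genes with a member at the start (31.6% of the genes with a strand), 804 (16.1%) had 2 or more there, 4 of them with 3. On opposite sides of the start lay the members of 784 genes, with a median spacing of 1122 bp between midpoints (quartiles 932 and 1294). The downstream region had the higher fold at 482 of the 784 (61.5%, 58.0 to 64.9), with medians of 4.73 downstream and 4.15 upstream. The 784 are genes, so a pair of regions that flanks starts on both strands counts for each gene, with its sides swapped. The interval takes no account of this. By the lower fold of the pair, the strongest was ZYX, which encodes zyxin of focal adhesions, with 14.7-fold in chr7:143380384-143381028 upstream and 16.3-fold in chr7:143381311-143382268 downstream. The 2 regions are 645 and 958 bp wide with the start, at base 143381345, just inside the downstream one. WDR81 followed with 13.2-fold upstream and 13.5-fold downstream, then RAN, the GTPase of nuclear transport, with 10.4-fold and 13.9-fold. YTHDF1, a reader of methylated adenosine in RNA, had 9.28-fold upstream and 13.1-fold downstream, and HAPSTR1 8.77-fold and 13.6-fold, and the uncharacterised LOC105374355 ranked between them (8.91-fold and 9.13-fold). In all of these genes the downstream region was the stronger. At SLC25A6, the ADP/ATP carrier in the pseudoautosomal part of the sex chromosomes, the upstream region was (10.4-fold against 9.46-fold). Its upstream region is also the downstream region of LOC124900597 on the other strand, and its reads could map to X or Y.

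Starts that face another start were marked more often. Where a gene on the opposite strand began within 1 kb, 1074 of 2162 starts (49.7%, 47.5 to 51.8) had a member, against 3931 of 13680 other starts (28.7%, 28.0 to 29.5). Any member within 1 kb counts, so a start near another also collects its neighbour's region, and both starts of a pair enter. How much of the gap comes from this was not tested. A single member lay within 1 kb of starts on both strands in 622 cases (9.75%). The strongest of these stood between ZYX and FAM131B (16.3-fold), then S100A13 and CHTOP (15.8-fold), the zinc finger factor PLAGL2 and the fucosyltransferase POFUT1 (14.9-fold), STRN3 and AP4S1 (14.7-fold), and RPL12 and LRSAM1 (13.5-fold). In the S100A13 and PLAGL2 pairs the midpoint was 21.0 and 25.5 bp from the nearer start, and the regions spanned 1599 and 2272 bp, so a single region covered both starts. By contrast, the STRN3 region lay 467 bp into that gene. Near 1 gene only lay 5348 members, near 2 genes 983, and near 3 or more 48.

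Width and strength ran together, and members were narrower and weaker than shared regions. Member widths ran from 266 to 2495 bp, with a median of 546 bp (quartiles 384 and 815). Below 500 bp were 43.4%, and 255 reached 1500 bp. The narrowest, all 266 bp, lay at HES2, MRPL4 and ALG5, with folds of 3.82, 2.65 and 3.49. At the other extreme, CERS2, a ceramide synthase, had 2495 bp, TMEM187 2490 bp (beside HCFC1, 11.6-fold) and EIF2S3, a subunit of translation initiation factor 2, 2473 bp. The median fold rose with width, from 3.69 in regions under 400 bp to 7.76 in those of 1500 bp or more (Spearman's rho over all 6379 members 0.547, a description in which wide and strong regions share reads). The share centred within 150 bp of a start rose too, from 3.21% (44 of 1370) to 19.2% (37 of 193). Shared narrow regions at gene ends, 612 in all, were wider and stronger, with medians of 939 bp and 6.92-fold on 35 fragments. Members had medians of 4.45-fold (quartiles 3.605 and 5.91) and 22 fragments (17 and 30). The rule parts these classes by overlap with a control row, which a wider region meets more easily. Members lay closer to other knockdown regions. Knockdown-only narrow regions elsewhere had medians of 525 bp, 3.93-fold and 20 fragments, and all knockdown regions 573 bp, 4.21-fold and 22 fragments.

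**Figure D2:**
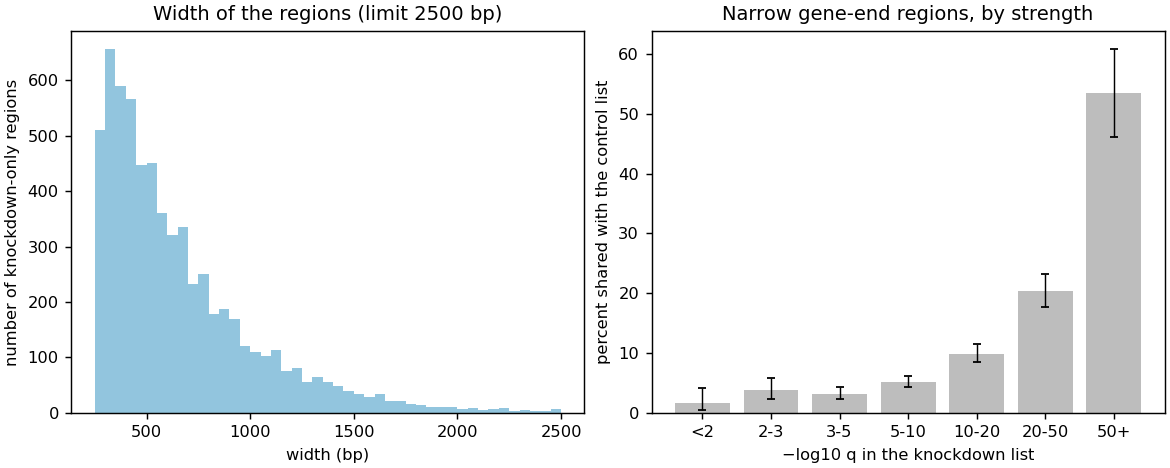
Left, number of knockdown-only gene-end regions (vertical axis) by width in bp (horizontal axis, 50 bp bins up to the limit of 2500 bp). Right, percent of narrow gene-end knockdown regions that overlap a control region (vertical axis, 95% exact intervals) by −log10 q (horizontal axis), which rises from 1.67% below 2 to 53.5% at 50 and above.

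The chance of a counterpart in the control list rose with strength. Among the 6991 narrow knockdown regions at gene ends, 8.75% were shared. By the authors' −log10 q, the share was 1.67% (0.456 to 4.21) below 2, 5.21% (4.31 to 6.22) from 5 to 10, 20.4% (17.7 to 23.2) from 20 to 50, and 53.5% (46.1 to 60.8) at 50 and above. This last class holds 87 members, and the strongest regions named above are among them.

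Ends of genes were seldom marked, and at a higher rate where another gene begins. Of genes with a strand, 397 (2.51%) had a member at the end. Where another gene's start lay within 1 kb of the end, 120 of 542 ends were marked (22.1%, 18.7 to 25.9). Where no start lay so near, it was 260 of 14945 (1.74%, 1.54 to 1.96), which is most of the marked ends, and where only the gene's own start did, 17 of 355 (4.79%, 2.81 to 7.56). A member that belongs to another gene's start counts for the end too when within 1 kb of it. Starts of genes without a strand could not be counted here. Of the 288 members nearest an end, 83 (28.8%) were within 1 kb of any start in the promoter table, alternative and noncoding ones included. The strongest end region lay 637 bp beyond the end of TEX2 (chr17:64146024-64147157, 16.5-fold), 202562 bp from the nearest control region. CLDN4, a claudin of tight junctions, had 12.2-fold at its end, in a region of 2065 bp that covers most of its 1695 bp. For MUC1, a membrane mucin, the region centred 917 bp past the end (6.45-fold), and it lies nearer to the end of TRIM46, 64 bp inside that gene.

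Both ends were marked in 232 genes, 1.16% of all protein-coding genes. In 43 of them the only member was a single region that served both ends, which limits the span to about 2 kb by the rule (median 1132 bp, against 28016 bp for all marked genes). Replication-dependent histone genes made up 9 of the 43, among them H3C7 (4.83-fold), H4C16 (4.65-fold), H2BC9 (4.14-fold) and H1-2 (3.86-fold). The strongest named genes of this kind were TMDD1 (11.6-fold), the epithelial 14-3-3 protein SFN (11.2-fold), the interferon-induced ubiquitin-like ISG15 (10.7-fold) and the ribosomal RPL36 (9.85-fold). ID1, an inhibitor of helix-loop-helix factors, and the transcription factor CEBPD, also single-region genes, were named after their values were seen (5.08-fold and 6.61-fold).

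The other 189 genes had more than 1 member, and a median span of 13227 bp. In 168 of them no region was common to both ends, and the 10 described next are the strongest of these 168 by the lower fold of the 2 ends. In 54 of the 149 with a strand (36.2%), the region at the end was within 1 kb of another gene's start. RHOA, a small GTPase of the actin cytoskeleton, was such a case: 7.41-fold at its start, and 8.04-fold at its end in chr3:49357269-49359190, where the antioxidant gene GPX1 begins. The mitochondrial deacylase SIRT5 had 7.73-fold at its start and 7.56-fold at its end, next to the start of NOL7. LSR (7.25-fold and 6.19-fold) ends beside the start of USF2. SIRT7, a nuclear deacetylase of the same family, had 8.23-fold at one end and 6.68-fold at the other, by the start of PCYT2, and AKAP8L 6.21-fold at both, with AKAP8 starting next to it. At JUND, DUSP28 and TRERF1 no boundary of another protein-coding gene lay within 1 kb of the end region. JUND, an AP-1 subunit of 1929 bp, had 6.44-fold upstream of its start. Its end region, at 7.88-fold, was 1672 bp wide and covered most of the gene. The phosphatase gene DUSP28 had 13.3-fold at its start, shared with ANKMY1, and 8.37-fold at its end. TRERF1 (8.78-fold at the start and 8.27-fold at the end) spans 227294 bp, the longest of these. CAVIN3 (9.25-fold and 10.1-fold), a caveolar protein, and the chromatin remodeller SRCAP (8.91-fold at the start and 6.76-fold at the end) complete the 10. CAVIN3 has no strand here, so which boundary is its end is not known. The end region of SRCAP lay beside TMEM265, also without a strand, so a neighbouring start there cannot be told.

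By chromosome, the marked share of genes was even over most autosomes and low on X. The 6379 members lay on 23 chromosomes, all but Y, which had no knockdown region at all. Marked at either end were 6303 of 20037 protein-coding genes (31.5%), and the share ran from 24.8% (21.8 to 28.0) on chromosome 4 to 37.2% (34.4 to 40.1) on chromosome 17 among the autosomes. X had 157 of 848 genes marked (18.5%, 16.0 to 21.3), an interval below that of every autosome. Chromosome 1 held the most members (680) and chromosome 21 the fewest among the autosomes (70). The low share on some autosomes went with clusters of tissue-restricted genes. Without 13 such families (below), chromosome 11 rose from 29.3% to 34.4% and chromosome 21 from 27.6% to 35.1%, but X only to 19.5% and chromosome 4 to 25.9%. The median width ran from 494 bp on chromosome 21 to 636 bp on chromosome 13, and the median fold from 4.26 on chromosomes 7 and 18 to 5.19 on chromosome 21.

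**Figure D3:**
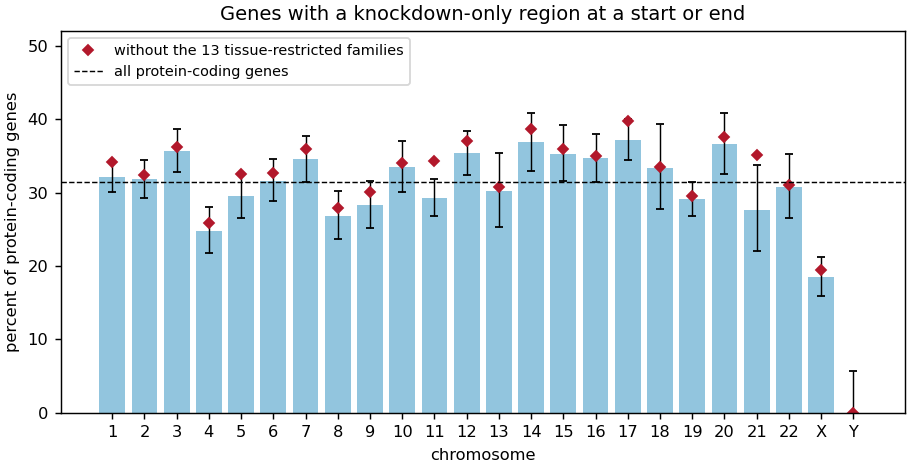
Percent of protein-coding genes with a knockdown-only region at a start or end (vertical axis) by chromosome (horizontal axis), with 95% exact intervals. Red diamonds leave out 13 tissue-restricted families and the dashed line is the 31.5% of all genes; X stands lowest of the marked chromosomes at 18.5%.

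On chromosome 19, members were 41.1% of the 1028 knockdown regions, the highest share of any chromosome. The lowest of those with members was 15.6%, on chromosome 13. A member must lie at a gene boundary, so this share also depends on how many genes a chromosome holds. Chromosome 19 has 1451 protein-coding genes, and chromosome 13 has 338 beside 671 knockdown regions. Whether placement differs beyond this was not tested. Genes of chromosome 19 were marked a little less often than genes at large (422 of 1451, 29.1%, 26.8 to 31.5). The difference lay with the zinc finger genes named ZNF, transcription factors that fill large clusters there. Of 250 ZNF genes on chromosome 19, 50 were marked (interval 15.2 to 25.5%), against 372 of 1201 other genes of the chromosome (31.0%, 28.4 to 33.7). On the other chromosomes 109 of 267 ZNF genes were marked (40.8%, 34.9 to 47.0). The strongest regions of single chromosomes included MACROH2A1, a histone variant, on chromosome 5 (14.9-fold), RPL10A on 6 (16.6-fold), TRIM55 on 8 (16.4-fold), the E2F partner TFDP1 on 13 (15.1-fold), the splicing factor gene ESRP2 on 16 (16.6-fold), PDXK on 21 (16.8-fold), TXN2 on 22 (16.2-fold) and RAB33A on X (14.6-fold). The lowest of these maxima was VAPA on chromosome 18 (12.04-fold).

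Families of genes that every cell uses were marked most. In 19 such families 461 of 831 genes (55.5%, 52.02 to 58.9) had a member, against 31.5% of all genes. The chaperonin that folds actin and tubulin had 8 of 9 genes marked, ATP synthase and its partners 17 of 20, and the MCM helicase with the origin complex 12 of 16. Cytosolic ribosomal proteins had 63 of 88 (71.6%), led by RPL10A (16.6-fold), RPL12 (13.5-fold) and RPL11 (13.4-fold). Their median fold, 7.33, was the highest of the 19 families. A further 12 had another kind of knockdown region, shared or wide, and 13 had none. The aminoacyl-tRNA synthetases, which charge tRNAs, had 24 of 34, with WARS1 at 12.2-fold and CARS1 at 8.91-fold. Initiation factors of translation had 29 of 56, with EIF1 (14.9-fold), EIF3A (14.6-fold) and EIF4G2 (14.1-fold) strong among them.

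Protein turnover, traffic and RNA processing followed. The proteasome had 29 of 50 genes marked (PSMB5 9.54-fold, PSMD11 8.84-fold), the ubiquitin-conjugating enzymes 20 of 36 (UBE2Q1 11.8-fold) and the DNAJ co-chaperones 24 of 45 (DNAJB4 9.50-fold). Ubiquitin-specific proteases, with 25 of 77 (32.5%), stood near genes at large. VPS genes of endosomal sorting had 22 of 35, with VPS28 and VPS36 both at 10.9-fold, and RAB GTPases of vesicle traffic 31 of 63 (RAB22A 9.84-fold). Spliceosome genes had 22 of 37 (LSM3 11.98-fold), RNA helicases 29 of 54 (DDX59 7.88-fold), Mediator 14 of 30 (MED13 11.6-fold) and RNA polymerase subunits 14 of 33 (POLR2M 16.9-fold). Of mitochondrial families, the ribosomal proteins had 45 of 77 (MRPL23 13.8-fold), the NDUF genes of complex I 22 of 46 (NDUFB1 10.2-fold), the import machinery 11 of 25 (TOMM20 6.04-fold) and the SLC25 carriers 22 of 48. Some of these intervals also held the 31.5% of all genes. They were those of Mediator (28.3 to 65.7%), RNA polymerase subunits (25.5 to 60.8%), the import machinery (24.4 to 65.1%) and the SLC25 carriers (31.4 to 60.8%).

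**Figure D4:**
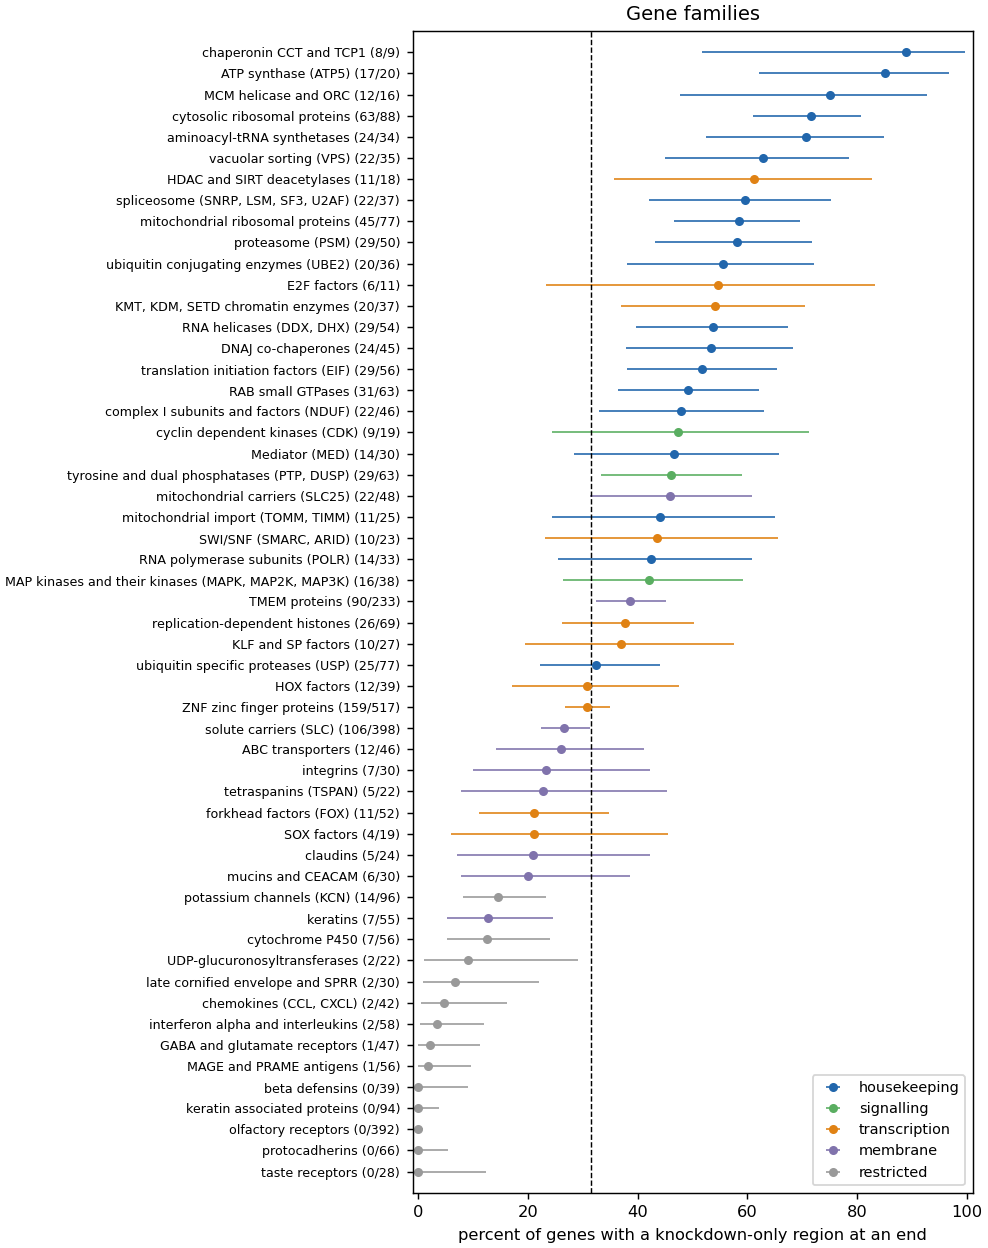
Percent of each family's genes with a knockdown-only region at a start or end (horizontal axis), with 95% exact intervals, for 54 families coloured by role (vertical axis, marked and total genes in brackets). The dashed line is the 31.5% of all protein-coding genes; the families of general cell function lie to its right and the tissue-restricted ones to its left.

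Signalling families pooled had 54 of 120 genes marked (45.0%, 35.9 to 54.3). The intervals of the chromatin families overlapped each other, with 35.7 to 82.7% for deacetylases and 26.3 to 50.2% for replication-dependent histones. Those of the cyclin-dependent kinases (24.4 to 71.1%), the MAP kinases (26.3 to 59.2%), SWI/SNF genes (23.2 to 65.5%) and histones held the 31.5% of all genes. Cyclin-dependent kinases had 9 of 19 genes marked, with CDK17 (9.20-fold), the elongation kinase CDK9 (8.34-fold) and the cell cycle kinase CDK4 (7.14-fold). Tyrosine and dual-specificity phosphatases had 29 of 63, led by PTPRH (16.3-fold). The MAP kinases and their kinases had 16 of 38, none above 5.88-fold (MAP2K4). Deacetylases had 11 of 18, with SIRT7 and SIRT5 (above) ahead of HDAC2 (5.63-fold). Histone methyltransferases and demethylases had 20 of 37, with KMT5B (11.2-fold), KDM5C (10.8-fold) and KDM5B (9.53-fold), and SWI/SNF genes 10 of 23, with the ATPase SMARCA4 at 9.77-fold. Replication-dependent histones had 26 of 69, of which 13 were marked at both ends, the most of any family. These genes are short against the 1 kb window, and in 9 of the 13 a single region served both ends.

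Transcription factor families had differing shares, but the interval of each one in this paragraph held the 31.5% of all genes. It ran from 23.4 to 83.3% for the E2F group and from 6.05 to 45.6% for SOX factors. The E2F group had 6 of 11 genes marked (TFDP1 15.1-fold, E2F1 8.38-fold) and the KLF and SP factors 10 of 27 (KLF6 19.8-fold, KLF3 14.7-fold, KLF10 10.4-fold). ZNF genes had 159 of 517 (30.8%, 26.8 to 34.9), near genes at large, with ZNF562 at 12.8-fold and ZNF689 at 12.3-fold. HOX genes, which pattern the body axis, had 12 of 39 at a median of 3.33-fold, the lowest median of all families with a member, and HOXB7 stood highest at 9.77-fold. Forkhead factors had 11 of 52, led by FOXA2 of the gut endoderm (8.93-fold), and SOX factors 4 of 19, SOX21 (6.84-fold) and SOX9 (6.80-fold) among them.

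Pooled by role, membrane families (238 of 838 genes, 28.4%) and tissue-restricted families were marked least. Single membrane families differed: TMEM proteins (90 of 233, 38.6%, 32.3 to 45.2) lay above the 31.5% of all genes. So did SLC25 carriers (22 of 48, 45.8%), though their interval, from 31.4 to 60.8%, held it. Solute carriers as a whole had 106 of 398 (26.6%), with SLC25A6 (10.4-fold) first, SLC6A9, a glycine transporter, at 10.3-fold and SLC44A3 at 10.1-fold, ABC transporters 12 of 46 (ABCC1 9.53-fold), integrins and their binding partners 7 of 30 (ITGA5 6.68-fold), claudins 5 of 24 and keratins 7 of 55 (KRT80 13.2-fold). Mucin and CEACAM genes had 6 of 30, with MUC5AC, the secreted mucin of the stomach surface, at 6.90-fold. In the 13 restricted families 31 of 1026 genes were marked (3.02%, 2.06 to 4.26). None of 392 olfactory receptors (upper bound 0.937%), 94 keratin-associated proteins, 66 protocadherins, 39 beta defensins or 28 taste receptors had a member, nor did they have any other knockdown region at an end. Potassium channels made up 14 of the 31 (KCNC4 8.34-fold) and cytochromes P450 another 7. Others were MAGEF1 (9.34-fold) in the MAGE and PRAME family, the interleukin receptor IL4R (7.998-fold), and GRINA (5.01-fold), which the symbol search took for a glutamate receptor. CYP1A1, an inducible cytochrome P450, was the strongest of the 31 at 15.3-fold, 838 bp upstream of its start. SPRR4 (8.56-fold) and SPRR1A (7.48-fold), of the cornified envelope, and UGT1A6 (7.21-fold) were others.

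Promoter sequence, which the rule did not use, varied with marking. Of the 13819 genes whose promoter sequence starts at the gene boundary, 4538 (32.8%) had a member at the start. The ratio of observed to expected CpG had a median of 0.872 in these (quartiles 0.753 and 0.976), 0.767 in all and 0.649 where no knockdown region lay at the start. Marked starts rose steadily with that ratio, from 93 of 1717 (5.42%, 4.39 to 6.59) below 0.2 to 1031 of 2963 (34.8%) from 0.6 to 0.8 and 903 of 1671 (54.0%, 51.6 to 56.5) at 1 and above. At least 0.6 was reached by 89.4% of marked promoters and 66.4% of all. Starts with a shared or wide knockdown region instead had a median of 0.884.

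Most regions lay downstream of the start in both promoter classes. At CpG-rich starts 76.0% (74.6 to 77.3) of 4054 regions were downstream, and at CpG-poor ones (ratio below 0.4) 69.0% (62.9 to 74.7) of 252. The downstream cluster was tighter at CpG-rich starts, with 17.8% of midpoints between 300 and 400 bp, against 9.52% at CpG-poor ones.

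**Figure D5:**
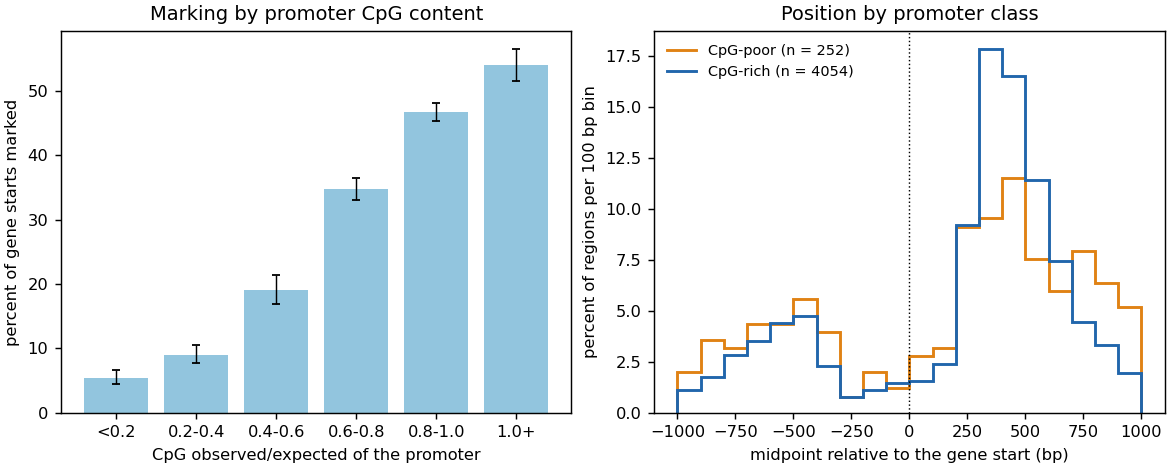
Left, percent of gene starts with a knockdown-only region (vertical axis, 95% exact intervals) by the promoter's observed to expected CpG ratio (horizontal axis), rising from 5.42% to 54.0%. Right, percent of regions per 100 bp bin (vertical axis) by midpoint distance from the start in bp (horizontal axis) for CpG-poor (below 0.4) and CpG-rich (0.6 and above) promoters. Both lines are low just before the start, and the CpG-poor one rests on 252 regions in all.

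Of 10 motifs searched in these 300 bases on both strands, the share among marked promoters was set beside that among all 13819. The GC box GGGCGG of SP and KLF factors was in 74.4% of marked and 58.5% of all promoters. The ETS site CCGGAAG was in 22.8% (21.6 to 24.1) and 14.6%, the YY1 site AAGATGGCG in 4.98% and 2.87%, and the NRF1 core CGCATGCG in 4.34% and 2.99%. The E-box CACGTG was in 11.1% and 8.95%. The cyclic AMP response element TGACGTCA was in 3.57% and 2.70%, and TGACGT, which it contains, in 12.6% and 9.94%. The CCAAT box CCAAT was in 36.4% and 37.2%, the AP-1 site TGACTCA in 3.15% and 3.64%, and the TATA box TATAAA in 5.18% (4.55 to 5.86) and 10.03%. Looked at the other way, 57.1% of promoters with the YY1 letters were marked and 17.0% of those with the TATA letters. Among promoters with a CpG ratio of at least 0.6, the GC box was near even (78.8% of marked, 76.8% of all). The ETS site stayed at 24.5% and 20.2%, YY1 at 5.40% and 4.10%, and TATA at 4.22% and 5.24%. NRF1 (4.83% and 4.39%), the E-box (11.6% and 10.9%), the cyclic AMP element (3.797% and 3.716%), its shorter form (13.1% and 12.6%) and CCAAT (35.8% and 36.2%) came closer to even. The AP-1 site was in 2.27% of marked and 1.98% of all, on 92 and 182 promoters. Without the CpG limit, its interval among marked promoters, 2.66 to 3.70%, held the 3.64% of all, so no direction could be read there. A match is a description of letters and not of a bound factor.

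Epithelial markers were marked more often than the 31.5% of all genes, but so were those of 1 other list, and all lists are short. Of 12 gastric epithelial genes, 9 had a member, with CLDN4 (12.2-fold), TFF1, a trefoil peptide of gastric mucosa (8.37-fold), CLDN7 (8.20-fold) and the cadherin CDH1 (7.25-fold) the highest, and KRT8 had another knockdown region. The region counted for MUC1 is the one at the end of TRIM46. KRT8, KRT18 and KRT19 also had a control region within 1 kb of an end. Mesenchymal markers had 2 of 8, VIM (4.30-fold) and ZEB1 (3.37-fold), immune markers 3 of 8, CD3D (4.46-fold), LYZ (4.37-fold) and CD3E (4.34-fold), neuron markers 1 of 8, NEFL (4.60-fold), and muscle and liver markers 1 of 8, TTR (3.49-fold). No control region lay at the ends of these last 4 lists' genes.

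NIT2 itself carried a member, chr3:100334834-100335486, 653 bp wide, 403 bp downstream of its start and 6.23-fold on 41 fragments. Its nearest control region was 2047 bp away. Acetylation at the gene does not measure how far the hairpin lowered it. Among all 6303 marked genes, 391 had a control region with its midpoint within 1 kb of an end, though none that overlapped the member itself, and 224 (3.55%) had a shared knockdown region there as well.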

How the data were processed

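Single-end ChIP-seq of MKN45 cells gave 4 samples, an H3K14ac and an input library for each hairpin. The input libraries' values were not used here. Listed tools are Bowtie2 2.2.6 and MACS2 2.1.1, besides cutadapt 1.9.1 and Trimmomatic 0.35, on hg38, as far as the submitters' processing notes list them; FastQC and ChIPseeker are listed without a version. Whether the input served as control, how duplicates were handled and the caller's settings: not given in the sources used here. Both peak lists come from single libraries. PCR reads without molecular identifiers are not independent molecules. Per row, the authors' deposited values are a score, a fold (a ratio over background), a −log10 p-value, a −log10 q-value and the summit, with a smallest −log10 q of 1.30 in both lists. They describe and rank rows within a list. Total depth is unknown. Fragment pileup and background were solved from fold and −log10 p with the Poisson upper tail, giving whole pileups for over 99.9% of rows within 0.1%.

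Genes, starts and strands came from RefSeq (GRCh38.p14). Coordinates are 1-based. Overlap was 1 bp or more. Start and end are the outermost gene boundaries, oriented by the promoter table. CpG ratio is CpG count times length over the product of C and G counts. Families were found by symbol pattern. Members, families, markers and motifs were chosen with earlier results of these data known. Named genes were the 15 strongest members (1 is not reported here), 10 genes marked at both ends with no region common to both, the 3 widest and 3 narrowest, up to 3 per family, 1 per chromosome, 5 shared by opposite-strand starts and those at the rule's edges. Promoters printed are the first 7 by fold whose window at the gene start overlaps the region. Flanked starts, single-region genes, end regions, markers and NIT2 were added to these after values were seen. With 1 library per condition no test across samples was possible. Overlap and pileup steps were checked on planted regions. Python 3.11.15, pandas 2.3.3 and scipy 1.17.1 were used. Alternatives varied the window, position, thresholds, overlap and width limit.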

Additional observations from a re-analysis of the deposited data

How the results depend on the processing

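No paired analysis was possible because each condition had 1 library and the labels give no replicate numbers. The 9 alternatives gave 54 values. Among them 34 lay close to the reported one (counts within 1.5 times, shares and medians inside the 95% interval) and 20 did not. A window of 500 bp gave 3639 regions, 3768 genes, 53 with both ends marked and a median width of 490 bp. One of 2 kb gave 549 genes with both ends marked and a start share of 92.4%. At −log10 q of at least 5, there were 110 such genes, a width of 657 bp, 7.28% of regions on chromosome 19 and 95.6% nearest a start. At a fold of at least 5, there were 2451 regions, 2671 genes, 46 with both ends marked, a width of 768 bp, 8.08% on chromosome 19 and 95.8% nearest a start. With only 50% reciprocal overlap counted as shared, the width was 570 bp. Leaving out regions with a control region within 10 kb, chosen after seeing the data, gave 153 genes with both ends marked, a width of 538 bp and a start share of 95.2%. The start share thus ran from 92.4% to 95.8% over these settings, while the count of genes with both ends marked ran from 46 to 549 with the window and threshold. The unequal pileup and background of the 2 lists limit every absence from the control list.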
